A study of Mus musculus with 17 samples.

Results

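The 10 genes described here belong to the actin cytoskeleton and are known targets of serum response factor (SRF): Actb, Actg1, Vcl, Fhl2, Tpm1, Tpm2, Tpm4, Myl9, Flna and Zyx. They are the rows of the deposited count table that carry these 10 symbols, each found once, out of 15062 genes. C2C12 is a mouse myoblast line that can form muscle fibres in culture. Here it was grown in DMEM with 10% fetal bovine serum. All 6 groups were C2C12, with the introduced construct as the only labelled difference. The control group expressed pMSCV, a retroviral vector, and a further group expressed SRF. The other 4 expressed SRF-FOXO1, SRF-ICA1L, SRF-PDGFRB or SRF-RELA, fusions whose names pair SRF with a partner, in a study of soft tissue tumours with muscle-like features. There were 3 libraries per group and 2 in SRF-PDGFRB, 17 in all. The labels do not say whether a line is a clone or a pool, nor whether the libraries of a group came from separate cultures. The p-values therefore measure the spread between these libraries, which may be technical.

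SRF binds a short DNA element, the CArG box, in the promoters of muscle and cytoskeletal genes. It is switched on at many of them by its cofactors of the MRTF family, which are held in the cytoplasm by monomeric actin and enter the nucleus when actin is drawn into filaments. Actin genes are themselves targets, so the cytoskeleton feeds back on its own supply. In myoblasts the same factor serves both the general cytoskeletal genes described here and the muscle-specific actins and myosins.

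RefSeq promoters (GRCm38.p6, the bases before the annotated transcript start) were available for 9 of the 10 genes, Actb being the other. The window searched was the 250 bases before the start. An exact CArG box was found for 4 genes: Actg1, Vcl, Myl9 and Fhl2. Its pattern, CC, a run of A or T and GG, is the same on both strands, so only the printed strand was searched. The share of all 32851 promoter entries with an exact box in the same window was 1.47%, and 18.6% had one when 1 mismatch was allowed. Allowing 1 mismatch added Tpm1 and Flna and a second match in Myl9. A match is a description of the letters, and its absence in Tpm2, Tpm4 and Zyx says only that these letters were not in this window. The promoters with an exact box are printed because the box is what SRF recognises. Tpm2 is printed beside them because it was the gene that came nearest to a change. Capitals mark the exact CArG box. The windows are chr11:120348496-120348745 for Actg1 (minus strand), chr14:20929148-20929397 for Vcl (plus), chr2:156775214-156775463 for Myl9 (plus), chr1:43196762-43197011 and chr1:43163962-43164211 for the 2 starts of Fhl2 (minus), and chr4:43523555-43523804 for Tpm2 (minus), each 5′ to 3′ towards the gene:
Actg1: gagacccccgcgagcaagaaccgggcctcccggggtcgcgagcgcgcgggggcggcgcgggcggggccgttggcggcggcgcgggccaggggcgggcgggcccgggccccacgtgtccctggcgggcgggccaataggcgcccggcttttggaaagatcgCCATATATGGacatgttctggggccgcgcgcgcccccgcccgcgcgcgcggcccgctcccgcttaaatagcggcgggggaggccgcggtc
Vcl: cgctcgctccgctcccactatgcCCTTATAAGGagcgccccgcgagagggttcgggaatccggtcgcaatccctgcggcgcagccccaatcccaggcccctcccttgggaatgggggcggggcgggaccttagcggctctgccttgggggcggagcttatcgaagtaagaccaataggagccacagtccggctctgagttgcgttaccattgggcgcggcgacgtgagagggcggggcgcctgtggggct
Myl9: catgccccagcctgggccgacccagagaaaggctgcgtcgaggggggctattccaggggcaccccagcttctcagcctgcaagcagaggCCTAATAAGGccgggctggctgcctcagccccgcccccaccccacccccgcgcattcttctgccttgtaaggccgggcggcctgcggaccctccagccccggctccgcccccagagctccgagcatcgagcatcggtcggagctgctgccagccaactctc
Fhl2, start 1: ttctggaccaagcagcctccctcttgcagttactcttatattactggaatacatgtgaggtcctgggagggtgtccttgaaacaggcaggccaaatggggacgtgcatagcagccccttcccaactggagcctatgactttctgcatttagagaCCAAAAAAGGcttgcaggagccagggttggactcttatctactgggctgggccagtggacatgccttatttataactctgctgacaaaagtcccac
Fhl2, start 2: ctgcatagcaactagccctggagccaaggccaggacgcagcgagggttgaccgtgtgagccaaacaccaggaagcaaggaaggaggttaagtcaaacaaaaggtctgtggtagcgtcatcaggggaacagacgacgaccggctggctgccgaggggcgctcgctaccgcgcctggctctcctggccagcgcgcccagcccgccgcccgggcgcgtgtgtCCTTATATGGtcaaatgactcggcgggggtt
Tpm2: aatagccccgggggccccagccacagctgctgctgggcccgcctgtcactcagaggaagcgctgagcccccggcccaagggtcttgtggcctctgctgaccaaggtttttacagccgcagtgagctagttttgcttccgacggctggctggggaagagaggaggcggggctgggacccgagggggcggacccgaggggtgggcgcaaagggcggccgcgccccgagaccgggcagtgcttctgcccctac

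**Figure D1:**
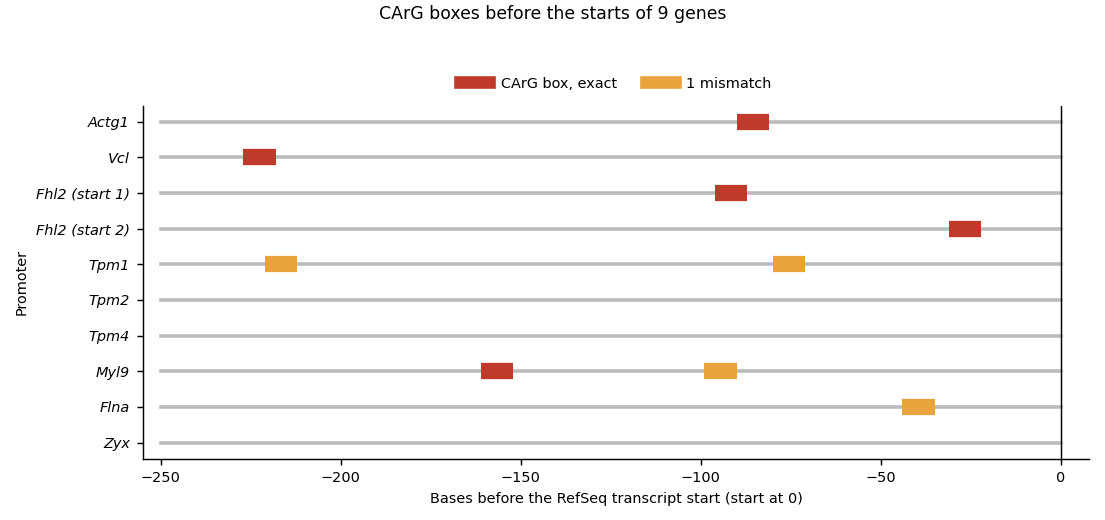
Position of CArG boxes in the 250 bases before the RefSeq start of 9 genes (x axis, bases from the start; one line per start, with 2 for Fhl2). Exact boxes begin 90 bases before the start in Actg1, 227 in Vcl, 161 in Myl9, and 96 and 31 in the 2 starts of Fhl2; paler blocks have 1 mismatch.

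The boxes lay at different distances from the start. The first base of the box was 90 bases before the start in Actg1, 161 in Myl9 and 227 in Vcl. Each start of Fhl2 had its own box, 96 and 31 bases before it. The matches with 1 mismatch began 221 and 80 bases before the start in Tpm1, 99 in Myl9 and 44 in Flna.

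Library totals ran from 20901442 to 23543734 counts, and the 10 genes together held 0.922% to 1.38% of a library. Srf itself was at 66.6 to 93.8 CPM (counts as a share of the library after TMM scaling, by a trimmed mean of log ratios) in pMSCV and at 1673, 678 and 1033 CPM in the SRF line, a log2 fold change of 3.79 (SE 0.38, edgeR quasi-likelihood adjusted p = 0.00158). In the fusion lines Srf lay between 70.5 and 279 CPM. How far reads of a fusion construct count towards mouse Srf is not known, so that level does not check the fusion labels. Of the 5 myoblast markers all were detected, with Myod1 at 5.69 to 111 CPM and Des at 44.5 to 892 CPM. Their summed level was 909 to 1266 CPM in pMSCV, 499 to 1006 in SRF, 127 to 168.0 in SRF-FOXO1, 286 to 769 in SRF-ICA1L, 220 to 498 in SRF-RELA, and 67.6 and 1451 in the 2 SRF-PDGFRB libraries. The macrophage and endothelial markers were near 0: of 5, only Cd68 and Cdh5 were in the table, and they summed to at most 6.08 CPM. The fibroblast markers (5 of 6 in the table) summed to 781 to 4683 CPM in pMSCV, 999 to 2009 in SRF and 904 to 7191 in SRF-FOXO1. Their sums were 1205 to 2731 CPM in SRF-ICA1L, 1202 to 3074 in SRF-RELA, and 447 and 2613 in the 2 SRF-PDGFRB libraries. The differentiated muscle markers (8 of 9 in the table) summed to 134 to 229.8 CPM in pMSCV, 46.0 to 82.7 in SRF, 8.675 to 33.6 in SRF-FOXO1, 34.3 to 60.01 in SRF-ICA1L, 17.3 to 91.8 in SRF-RELA, and to 4.41 and 430.0 in SRF-PDGFRB. The smooth muscle markers summed to 53.9 to 122 CPM in pMSCV, 63.2 to 135 in SRF, 113 to 145 in SRF-FOXO1, 131 to 159 in SRF-ICA1L, 110.0 to 327 in SRF-RELA and 52.7 to 88.2 in SRF-PDGFRB. The part of these differences in the results below was not tested, and fewer cells of a type cannot be told apart from less RNA per cell in bulk libraries.

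All 10 genes were expressed in every library. Per kilobase of exon, the median over 17 libraries was highest for Actb (1032 CPM per kb) and Actg1 (765), the 2 cytoplasmic actins. Tpm4 followed at 523 CPM per kb, then Flna at 296, Tpm1 at 163, Tpm2 at 122, Zyx at 87.9, Myl9 at 49.9, Vcl at 47.6 and Fhl2 at 39.1 CPM per kb. The length counts every annotated exon of a gene, so the order depends on it. Most neighbours in this order overlapped between libraries. The exception was Tpm4, at 433 to 696 CPM per kb, which lay above Flna, at 189 to 335, in all 17 libraries. Across libraries the highest level was 1.61 times the lowest for Tpm4 and 2.9 times for Zyx, and the 7 genes between them fell inside this range. Myl9 stood apart with a ratio of 28.9.

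**Figure D2:**
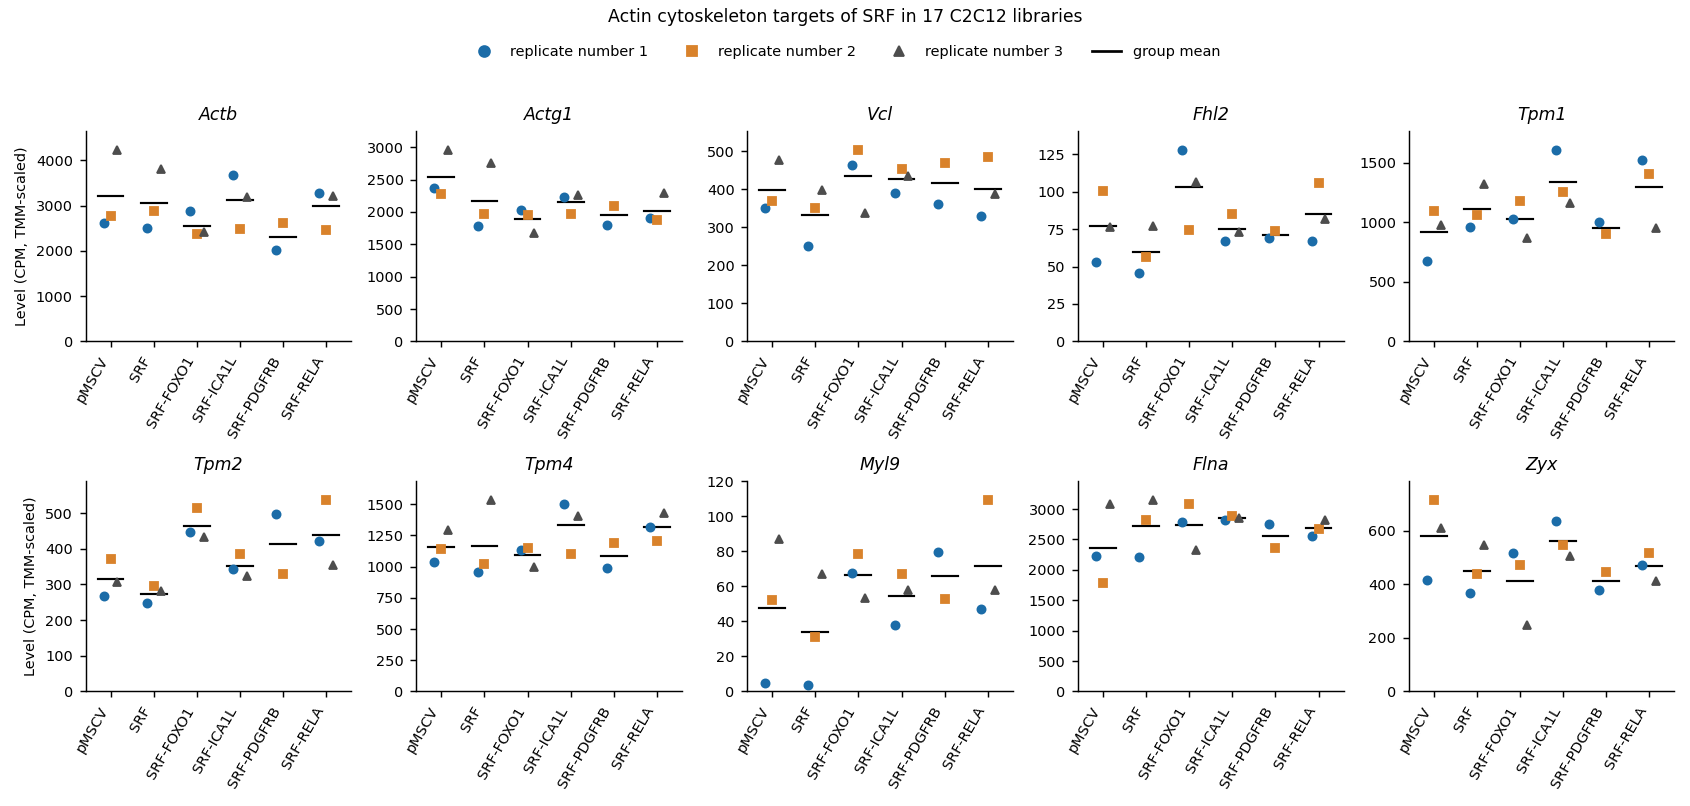
Level of each of the 10 genes (y axis, TMM-scaled CPM) in the 6 groups (x axis); each point is a library, its shape the replicate number, and the bar the group mean. All 11 fusion libraries of Tpm2 lie above its 3 SRF libraries (247 to 295 CPM), and Myl9 is close to 0 in replicate 1 of pMSCV (4.57 CPM) and of SRF (3.77 CPM).

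In the SRF line none of the 10 genes passed the test. In SRF against pMSCV, 0 of 10 were called by edgeR's quasi-likelihood test (adjusted p from 0.99 to 0.998), beside 0.00664% of all 15062 genes, which was 1 gene, Srf. None had an unadjusted p under 0.05, beside 3.34% of all genes, and DESeq2 called 0 of 10 as well, beside 0.0266%. The median log2 fold change of the 10 was -0.21, beside -0.016 over all genes, and 3 of 10 were positive. The values ran from -0.49 (SE 0.85) for Myl9 to 0.28 (SE 0.22) for Tpm1.

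The cytoplasmic actins, the building blocks of stress fibres and the cortex, had lower means in SRF and in each fusion line than in pMSCV. None of these differences was called. Actg1 (γ-actin, chr11:120345690-120348542, minus strand) was at 2368, 2277 and 2955 CPM in pMSCV and at 1786, 1967 and 2762 CPM in SRF. It was at 2034, 1952 and 1668 CPM in SRF-FOXO1, 2231, 1974 and 2259 in SRF-ICA1L, 1799 and 2098 in SRF-PDGFRB, and 1901, 1873 and 2287 in SRF-RELA. Each library of SRF-FOXO1, SRF-ICA1L and SRF-PDGFRB was below each pMSCV library, and SRF-RELA overlapped pMSCV through its replicate 3. The share of all genes that separated from pMSCV in this way was not counted. The log2 fold change against pMSCV was -0.43 (SE 0.18) in SRF-FOXO1, -0.23 (SE 0.18) in SRF-ICA1L, -0.38 (SE 0.20) in SRF-PDGFRB and -0.33 (SE 0.18) in SRF-RELA. In the SRF line it was -0.22 (SE 0.18). None was called by edgeR, and these 5 comparisons share the pMSCV libraries. Without replicate 3 of pMSCV, its highest library, the value was -0.11 in SRF-ICA1L and -0.20 in SRF-RELA. Against SRF the differences were smaller, between -0.20 and -0.011.

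Actb (β-actin, chr5:142903115-142906754, minus strand) was at 2612, 2766 and 4227 CPM in pMSCV, 2501, 2886 and 3818 in SRF and 2887, 2381 and 2413 in SRF-FOXO1. It was at 3684, 2474 and 3181 CPM in SRF-ICA1L, 2013 and 2616 in SRF-PDGFRB and 3277, 2467 and 3214 in SRF-RELA. Replicate 3 of pMSCV and of SRF were the highest libraries, SRF-PDGFRB 1 was the lowest, and each line overlapped pMSCV. Its log2 fold change against pMSCV was -0.47 (SE 0.26) in SRF-PDGFRB and between -0.32 and -0.040 in the other 4 lines. The share of Actb in the sum of both actins per kilobase was 57.3% ± 2.94 (SD, n = 17). Part of the actin sequence is shared with other genes: 45.6% of the 50-base stretches in Actg1 transcripts, and 12.2% in Actb, also occur in another gene's transcripts (GENCODE annotation), 41.1% of those of Actg1 in Gm12715. Their counts are uncertain to that extent, since how shared reads were counted is not given in the sources used here.

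Among the tropomyosins, which wind along actin filaments and set which myosins and severing proteins can reach them, Tpm2 was the member that came nearest to a change. Tpm2 (chr4:43514711-43523765, minus strand) was at 267, 373 and 308 CPM in pMSCV and 247, 295 and 281 CPM in SRF. It was at 448, 514 and 433 CPM in SRF-FOXO1, 344, 384 and 325 in SRF-ICA1L, 496 and 329 in SRF-PDGFRB, and 423, 536 and 354 in SRF-RELA. Each of the 11 fusion libraries lay above all 3 SRF libraries, and each SRF-FOXO1 library lay above all pMSCV libraries. The other 3 fusions overlapped pMSCV. The share of all genes that separated in either of these ways was not counted.

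In the fit of all 17 libraries with a term for group alone, edgeR called Tpm2 in no comparison. Against pMSCV its log2 fold change was 0.56 in SRF-FOXO1 (SE 0.19, adjusted p = 0.126), 0.47 in SRF-RELA (SE 0.19), 0.39 in SRF-PDGFRB (SE 0.21) and 0.15 in SRF-ICA1L (SE 0.19). Against SRF it was 0.76 in SRF-FOXO1 (SE 0.19, adjusted p = 0.175), 0.67 in SRF-RELA (SE 0.19, adjusted p = 0.975), 0.59 in SRF-PDGFRB (SE 0.21) and 0.36 in SRF-ICA1L (SE 0.19). The 2 SRF-PDGFRB libraries differed: against pMSCV the log2 fold change was 0.047 without library 1 and 0.65 without library 2, the remaining library being assumed to vary like those of other groups. The mean of the 4 fusions against the mean of pMSCV and SRF gave 0.49 (SE 0.12, adjusted p = 0.073).

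Other fits did call it. With the replicate number as a block in the 12 libraries of SRF-RELA, SRF-ICA1L, SRF and pMSCV, Tpm2 rose in SRF-RELA by 0.48 against pMSCV (SE 0.125, edgeR adjusted p = 0.0471) and by 0.67 against SRF (SE 0.125, adjusted p = 0.043). The share of genes called in those blocked fits was 6.48% and 0.656%. Neither difference was called with a block over all 17 libraries (adjusted p = 0.335 and 0.804, with 0% and 0.00664% of genes called) or by DESeq2 (0.348 and 0.381). Same-numbered libraries of SRF-RELA and pMSCV had Tpm2 ratios of 1.58, 1.44 and 1.15, and those of SRF-RELA and SRF 1.71, 1.82 and 1.26, so all 6 pairs pointed one way. When each of the 12 libraries was left out of the blocked fit in turn, which was chosen after seeing the data, the call stayed in 2 of 12 fits against pMSCV (adjusted p from 0.0408 to 0.2) and in 3 of 12 against SRF (0.0247 to 0.199). Leaving out any of the other 10 libraries against pMSCV, or of the other 9 against SRF, ended the call. Those with the call kept left out SRF 2 or SRF-RELA 3, and pMSCV 1, 2 or 3. The log2 fold change stayed between 0.39 and 0.60 against pMSCV and between 0.59 and 0.79 against SRF. With only SRF-FOXO1 and SRF in the fit, edgeR called Tpm2 (0.78, adjusted p = 0.0436, 3.79% of genes called). With the replicate number as a block in those 6 libraries, edgeR did not call Tpm2 (adjusted p = 0.0514, 1.57% of genes called). A block over all 17 libraries did not call Tpm2 in this comparison either (adjusted p = 0.0892, 0.00664% of genes called). DESeq2 called it in SRF-FOXO1 against SRF (0.77, adjusted p = 0.0139, 3.97% of genes called) and in the 4 fusions against pMSCV and SRF (0.50, adjusted p = 0.00566, 7.03% of genes called). A block over all 17 libraries called it in the pooled comparison (0.48, adjusted p = 0.0407, 3.88% of genes called), and so did leaving out replicate 2 of pMSCV (0.56, adjusted p = 0.0438, 3.09% of genes called) or of SRF-PDGFRB (0.56, adjusted p = 0.0161, 5.83%). Leaving out all libraries numbered 2, also chosen after seeing the data, gave edgeR calls in SRF-FOXO1. The values were 0.63 against pMSCV (adjusted p = 0.0251, 18.4% of genes called) and 0.74 against SRF (adjusted p = 0.0216, 12.5% of genes called). SRF-PDGFRB then kept only library 1, the higher of its 2 in Tpm2 (496 against 329 CPM). Its values rest on that library, with the spread taken from other groups. They were 0.79 against pMSCV (5.42% of genes called) and 0.91 against SRF (2.7% of genes called). The pooled comparison gave 0.58 (11.1% of genes called). There, and in the pooled fit without replicate 2 of SRF-PDGFRB, that group was also library 1 alone.

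**Figure D3:**
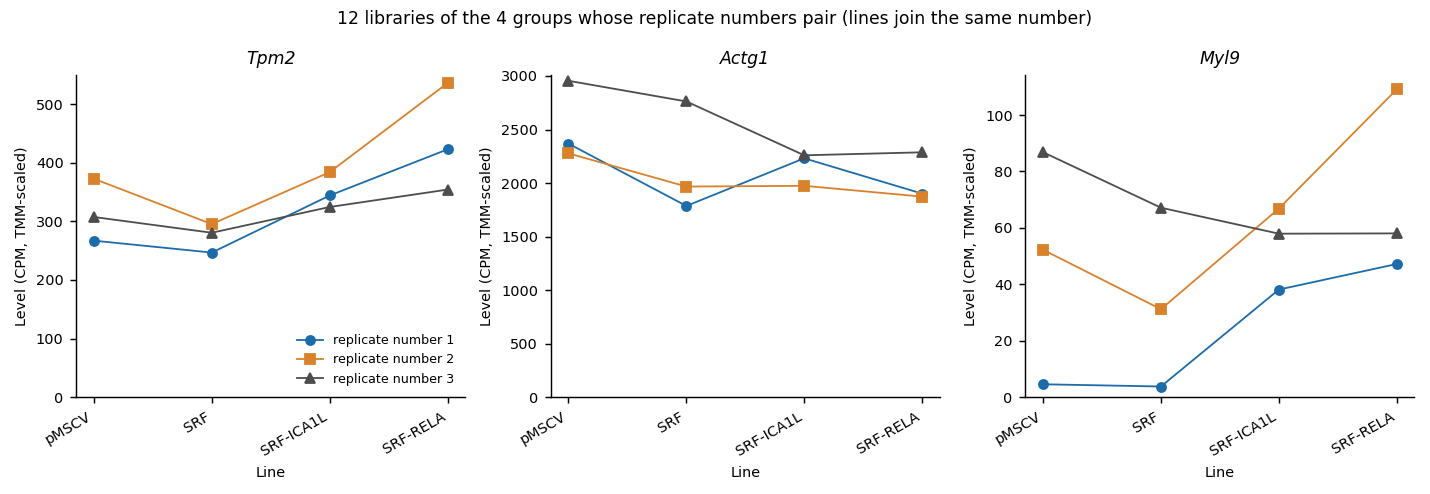
Level of Tpm2, Actg1 and Myl9 (y axes, CPM) in 12 libraries (x axis, the lines pMSCV, SRF, SRF-ICA1L, SRF-RELA); lines join libraries with the same replicate number. The 3 Tpm2 lines each end higher in SRF-RELA than in pMSCV or SRF (ratios 1.15 to 1.82), while Actg1 ends lower than in pMSCV and Myl9 starts near 0 in replicate number 1 alone.

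Tpm1 (chr9:67022590-67049406, minus strand), whose products include muscle and stress fibre isoforms, was at 676, 1099 and 980 CPM in pMSCV and at 957, 1058 and 1320 CPM in SRF. It was at 1607, 1259 and 1163 CPM in SRF-ICA1L and 1521, 1406 and 953 in SRF-RELA, against 1028, 1177 and 868 in SRF-FOXO1 and 999 and 898 in SRF-PDGFRB. All SRF-ICA1L libraries exceeded all pMSCV libraries, with a log2 fold change of 0.55 (SE 0.22), and SRF-RELA overlapped pMSCV with 0.49 (SE 0.22). Neither was called by edgeR. The share of all genes that separated between SRF-ICA1L and pMSCV was not counted. Tpm4 (chr8:72134975-72153142, plus strand) was the steadiest member, at 955 to 1533 CPM over all libraries. Its log2 fold changes against pMSCV lay between -0.087 and 0.21. For 12.1% of its 50-base stretches the predicted gene Gm7809 holds a copy. Per kilobase, Tpm4 made up 57.2% ± 3.97 (SD, n = 17) of the 4 tropomyosin genes. The length counts every annotated exon of a gene, so these shares depend on it. In CPM without the length, the medians were 1153 for Tpm4 and 1058 for Tpm1, and their ranges overlapped. The Tpm2 share was 12.3% ± 1.71 in pMSCV (SD, n = 3), 10.5% ± 1.65 in SRF (n = 3) and 17.7% ± 0.823 in SRF-FOXO1 (n = 3). In SRF-RELA it was 14.2% ± 2.85 (n = 3), in SRF-ICA1L 11.8% ± 2.26 (n = 3) and in SRF-PDGFRB 16.1% ± 4.72 (n = 2). The lowest SRF-FOXO1 share, 16.8%, was above the highest of pMSCV, 14.2%.

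The genes of focal adhesions and of filament cross-linking showed no called change. Vcl (vinculin, which ties integrin adhesions to actin, chr14:20929398-21033676, plus strand) was at 350, 369 and 477 CPM in pMSCV, 252, 350 and 399 in SRF, and 463, 503 and 337 in SRF-FOXO1. It was at 390, 453 and 435 CPM in SRF-ICA1L, 362 and 470 in SRF-PDGFRB and 330, 486 and 387 in SRF-RELA. SRF had the lowest mean and every fusion a log2 fold change between 0.27 and 0.38 against it, but all 4 groups overlapped SRF. Zyx (zyxin, an adhesion protein that recruits actin assembly factors to strained filaments, chr6:42349630-42360213, plus strand) was at 416, 714 and 612 CPM in pMSCV and at 368, 439 and 546 in SRF. It was at 517, 470 and 247 CPM in SRF-FOXO1, 637, 546 and 506 in SRF-ICA1L, 379 and 446 in SRF-PDGFRB and 474, 516 and 412 in SRF-RELA. Its log2 fold changes against pMSCV were -0.50 (SE 0.26) in SRF-FOXO1, -0.49 (SE 0.30) in SRF-PDGFRB and -0.31 (SE 0.26) in SRF-RELA, and each of these groups overlapped pMSCV. Flna (filamin A, which cross-links filaments into networks, chrX:74223461-74249820, minus strand) was at 2229, 1779 and 3090 CPM in pMSCV and at 2210 to 3146 CPM in the other libraries. Its log2 fold changes against pMSCV lay between 0.11 and 0.27 and those against SRF between -0.091 and 0.069.

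Myl9 (chr2:156775420-156781658, plus strand), the regulatory light chain of smooth muscle and non-muscle myosin II, varied the most. It was at 4.57, 52.2 and 86.8 CPM in pMSCV and at 3.77, 31.2 and 67.2 CPM in SRF. The lowest libraries, replicate 1 of pMSCV and of SRF, held 99 and 83 counts. It was at 67.3, 78.2 and 53.3 CPM in SRF-FOXO1, 38.1, 66.8 and 58.0 in SRF-ICA1L, 79.3 and 52.5 in SRF-PDGFRB and 47.2, 109 and 58.1 in SRF-RELA. The lowest fusion library was at 38.1 CPM, and every fusion group overlapped SRF and pMSCV through replicate 3 of those groups. SRF-ICA1L and SRF-RELA overlapped pMSCV through its replicate 2 as well, while replicate 2 of SRF lay below all fusion libraries. The log2 fold change against SRF was 1.07 in SRF-RELA and 0.96 in SRF-FOXO1, with an SE of 0.86 and 0.85. In the 2 libraries of SRF-RELA and pMSCV numbered 1 the ratio was 10.3, in those numbered 2 it was 2.09 and in those numbered 3 it was 0.669. Without replicate 1 of pMSCV, the log2 fold change of SRF-FOXO1 against pMSCV went from 0.47 to -0.069 and that of SRF-ICA1L from 0.18 to -0.36.

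Fhl2 (chr1:43123074-43196984, minus strand), a LIM-domain protein that is both a target and a cofactor of SRF, was at 53.2, 101 and 76.7 CPM in pMSCV and at 45.6, 56.4 and 76.9 CPM in SRF. It was at 128, 74.1 and 107 CPM in SRF-FOXO1, 67.3, 85.3 and 73.2 in SRF-ICA1L, 69.0 and 73.8 in SRF-PDGFRB and 67.0, 106 and 81.7 in SRF-RELA. The highest group mean was in SRF-FOXO1, with a log2 fold change against SRF of 0.79 (SE 0.27), not called by edgeR, and the groups overlapped through replicate 2 of SRF-FOXO1.

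Taking the members by comparison, edgeR without a block called 0 of 10 in each of the 16 comparisons made. Against pMSCV, the share of all genes called was 0.71% for SRF-FOXO1, 0.0199% for SRF-PDGFRB, and 0% for SRF-ICA1L and for SRF-RELA. With SRF as the reference it was 0.0531% for SRF-PDGFRB, 0.00664% for SRF-FOXO1 and for SRF-RELA, and 0% for SRF-ICA1L. In the pooled comparison it was 0.0199%. At an unadjusted p under 0.05 the counts against pMSCV were 2 of 10 in SRF-FOXO1 (Actg1 and Tpm2, beside 20.9% of all genes), 1 in SRF-ICA1L (Tpm1, 6.23%), 0 in SRF-PDGFRB (7.7%) and 2 in SRF-RELA (Tpm1 and Tpm2, 8.05%). Against SRF they were 2 in SRF-FOXO1 (Fhl2 and Tpm2, 19.2%), 0 in SRF-ICA1L (1.56%), 1 in SRF-PDGFRB (Tpm2, 5.03%) and 1 in SRF-RELA (Tpm2, 3.21%). The pooled comparison had 1 (Tpm2, 18.5%). DESeq2 called 0 of 10 in each comparison with pMSCV, beside 9.07% of all genes for SRF-FOXO1, 0.725% for SRF-RELA, 0.466% for SRF-PDGFRB and 0.299% for SRF-ICA1L. With SRF as the reference it called 0 of 10 for SRF-PDGFRB (0.386%), SRF-RELA (0.0599%) and SRF-ICA1L (0.0133%). Between the fusion lines, 0 of 10 were called in any of the 6 pairs by edgeR or DESeq2, and 0 had an unadjusted edgeR p under 0.05. DESeq2 called 0.2% of all genes for SRF-PDGFRB against SRF-RELA, 0.18% for SRF-FOXO1 and for SRF-ICA1L against SRF-PDGFRB, and 0% for the other 3 pairs. The unadjusted share of all genes was 5.94% for SRF-FOXO1 against SRF-ICA1L, 3.87% for SRF-FOXO1 against SRF-PDGFRB and 2.51% for SRF-FOXO1 against SRF-RELA. It was 2.2% and 0.159% for SRF-ICA1L against SRF-PDGFRB and SRF-RELA, and 2.7% for SRF-PDGFRB against SRF-RELA. Over all genes edgeR called 0.0332% for SRF-ICA1L against SRF-PDGFRB, 0.0266% for SRF-FOXO1 against SRF-PDGFRB, 0.00664% for SRF-PDGFRB against SRF-RELA and 0% for the other 3 pairs.

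The median log2 fold change of the 10 against pMSCV was 0.16 for SRF-RELA, 0.14 for SRF-FOXO1, 0.12 for SRF-ICA1L and -0.020 for SRF-PDGFRB. Against SRF it was 0.20, -0.046, 0.30 and -0.096 in the same order, and 9 of 10 genes were positive in SRF-ICA1L. Single libraries decided the sign of several of these medians. Without replicate 1 of pMSCV the median against pMSCV was -0.011 in SRF-RELA and -0.079 in SRF-ICA1L, and without replicate 3 of pMSCV it was 0.049 in SRF-PDGFRB. Without all libraries numbered 1 it was -0.068 in SRF-FOXO1, and without those numbered 3 the median against SRF was 0.27 in SRF-FOXO1 and 0.10 in SRF-PDGFRB. Over all genes the medians lay between -0.0161 and 0.0283 in these comparisons. The comparisons with one control share its libraries, so their members' values are not independent of each other.

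**Figure D4:**
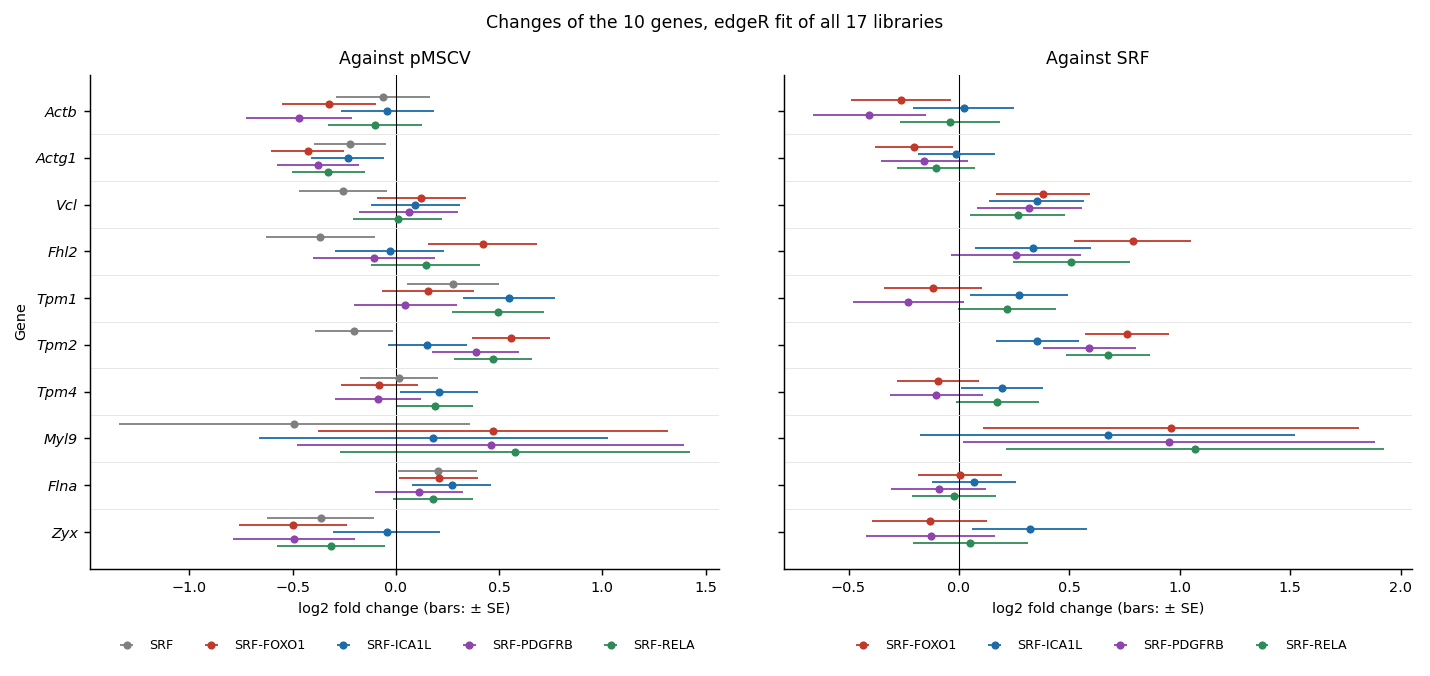
Log2 fold change of the 10 genes (x axis; bars are ± SE) in each line against pMSCV (left) and in each fusion against SRF (right), from the edgeR fit of 17 libraries without a block. Tpm2 has the points farthest above 0 relative to their SE (0.76 ± 0.19 in SRF-FOXO1 against SRF), the actins lie mostly below 0, and Myl9 has SEs between 0.85 and 0.94.

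The replicate number took a larger share of the variance than the group in 7 of the 10 genes. How many of all genes this held for was not counted. By median the number took the larger share over all genes too (49.6% and 19.5%), so the count is not particular to the members. In pMSCV, SRF, SRF-ICA1L and SRF-RELA, whose same-numbered libraries deviate together, edgeR called 3 of 10 for a difference between replicate numbers with 12 libraries and group in the fit: Actg1 (adjusted p = 0.0322), Vcl (0.0423) and Fhl2 (0.0192). Over all 14639 genes tested there, 52% were called, so the count of 3 is below the background. Leaving out single libraries moved this count between 0 and 4: it was 0 without replicate 1 of pMSCV, replicate 1 of SRF or replicate 2 of SRF-RELA. Fhl2 was higher in number 2 than in number 1 by 0.57 (SE 0.145, adjusted p = 0.0144) and Tpm2 by 0.31 (SE 0.108, adjusted p = 0.0449), beside 35.7% of genes called. Actb, Actg1 and Tpm4 were higher in number 3 than in number 2, by 0.46, 0.35 and 0.36 (adjusted p = 0.0393, 0.0255 and 0.0499), beside 42.2% of genes called. For number 3 against number 1, 0 of 10 were called by edgeR, beside 18.2% of genes called. The replicate number took a median 43.7% of the variance of the 10 genes in log2 CPM, and the group 30.4%. Over all genes the medians were 49.6% and 19.5%, and labels unrelated to the values would give 18.2% and 27.3%. Tpm2 was the member with the largest group share, 65.8%, against 23.3% for the number.

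The direction of the members differed between the numbers, with each ratio resting on 1 library of a line and 1 of a control. Of the same-numbered libraries of SRF-RELA and pMSCV, 8 of 10 genes were higher in SRF-RELA in number 1, 7 in number 2 and 3 in number 3. The median log2 ratios were 0.33, 0.22 and -0.22. For SRF-ICA1L and pMSCV the counts were 9, 5 and 3, with medians of 0.43, -0.0034 and -0.12. Against SRF, 10 of 10 were higher in SRF-RELA in number 1, 7 in number 2 and 2 in number 3, and for SRF-ICA1L 10, 9 and 2. The corresponding medians over all genes lay within 0.034 of 0, and 48.2% to 53.4% of all genes were higher. Both fusions were set against the same pMSCV and SRF libraries, so these counts are not independent of each other. SRF was below pMSCV in most members under each number, with 1, 2 and 4 of 10 higher. The labels do not say what the numbers stand for. Summed myoblast markers ran from 220 to 909 CPM in number 1, 396 to 1107 in number 2 and 498 to 1266 in number 3, ranges that overlapped. With terms for group and number in the 12 libraries, edgeR called each of the 5 myoblast markers higher in number 3 than in number 1. Of all genes, 9.35% were called higher there. Among the 5 were Pax7 (4.04, adjusted p = 0.00028), Myod1 (1.51, 0.000504), Des (1.08, 0.00273) and Myf5 (0.91, 0.00642). Pax7 was at most at 7.41 CPM. For the fibroblast markers the summed levels ran from 781 to 1205, 1376 to 4683 and 1388 to 2731 CPM in numbers 1, 2 and 3. Differentiated muscle markers ran from 17.8 to 229.8, 36.8 to 133.7 and 17.3 to 201.2 CPM. Smooth muscle markers ran from 53.9 to 187.4, 95 to 326.8 and 110 to 135.3 CPM. Their part in the members' levels was not tested.

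**Figure D5:**
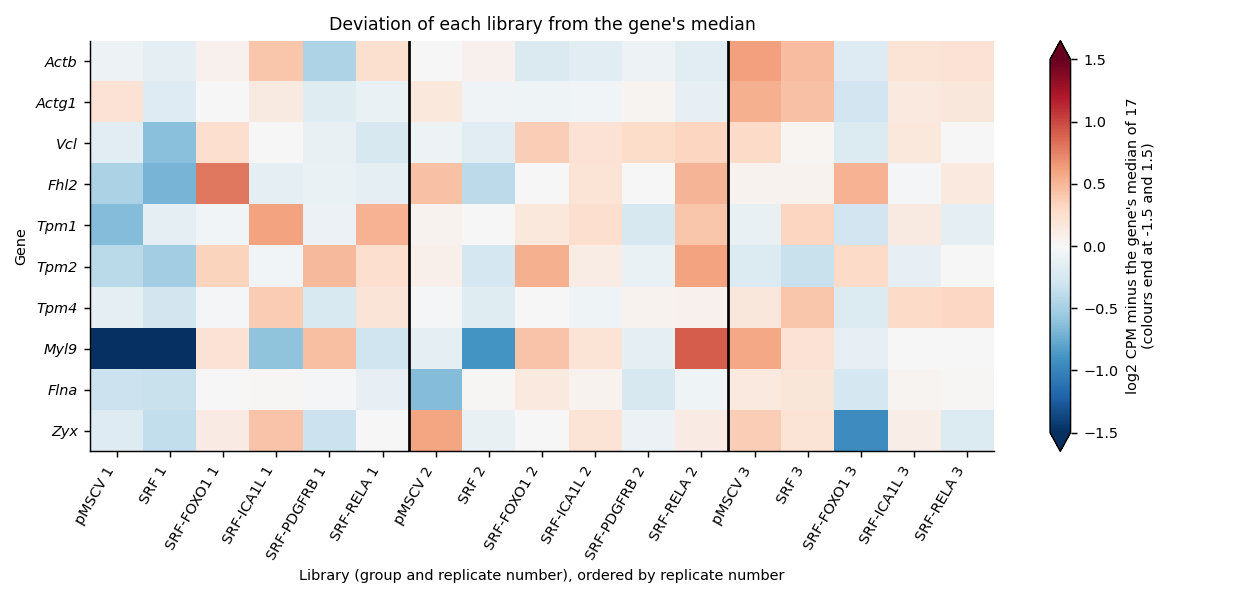
Deviation of each library from the gene's median over 17 libraries (colour, log2 CPM) for the 10 genes (rows) with libraries ordered by replicate number (columns, blocks split by black lines). The pMSCV and SRF columns are mostly blue (low) in number 1 and mostly red (high) in number 3, and the darkest cells are Myl9 in pMSCV 1 and SRF 1 (4.57 and 3.77 CPM).

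Other genes of the pathway were read from lists. Of 28 other cytoskeletal genes, among them Actn1, Myh9 and Cfl1, edgeR without a block called 0 in each comparison with pMSCV or SRF. At an unadjusted p under 0.05 the counts against pMSCV were 8 for SRF-FOXO1 (beside 20.9% of all genes), 4 for SRF-RELA (8.05%), 3 for SRF-ICA1L (6.23%), 1 for SRF-PDGFRB (7.7%) and 0 for SRF (3.34%), and the medians lay between -0.014 and 0.11. DESeq2 called Flnc (-0.70, adjusted p = 0.046) and Vasp (-0.59, adjusted p = 0.0209) lower in SRF-FOXO1 than in pMSCV, 2 of 28 beside 9.07% of all genes, so the count is below the background. With the block in 12 libraries, edgeR called Cald1 (caldesmon, which binds actin and tropomyosin) higher in SRF-ICA1L than in pMSCV by 0.72 (SE 0.152, adjusted p = 0.0337). In the same comparison Vasp (an actin elongation factor at adhesions) was lower by 0.47 on the log2 scale (adjusted p = 0.0468), among 2.99% of genes called. Enah, of the same family as Vasp, was higher in SRF-RELA than in pMSCV by 0.91 (SE 0.202, adjusted p = 0.0259), among 6.48% of genes called.

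In SRF and its cofactors, of which 6 of 9 listed symbols were in the table under the names used, only Srf was called in any comparison without a block. The symbols not found were Myocd and also Mkl1 and Mkl2, older names of Mrtfa and Mrtfb, which were in the table. The 4 muscle actins (Acta1, Acta2, Actc1 and Actg2) had 0 called by edgeR or DESeq2 in the comparisons with pMSCV. At an unadjusted p under 0.05 there was 1 of 4 in each of SRF-FOXO1 (beside 20.9% of all genes), SRF-ICA1L (6.23%) and SRF-RELA (8.05%). Acta2, smooth muscle actin, was at 222, 1592 and 2414 CPM in pMSCV and at 973, 2187 and 3902 CPM in SRF, lowest in number 1 and highest in number 3 as for Myl9, while the 11 fusion libraries lay between 1547 and 3194 CPM.

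Within the 10, levels did not move as one block. Over the 17 libraries the 45 pairs of members had Pearson correlations of log2 CPM from -0.498 to 0.786, with a median of 0.358, and 7 were negative. Actb followed Actg1 (r = 0.786) and Tpm4 (r = 0.783), while Myl9 followed Vcl (r = 0.722) and Fhl2 (r = 0.709). Tpm2 ran against both actins, at -0.498 with Actg1 and -0.45 with Actb, and was nearest to Myl9 (r = 0.668). The other genes most like the mean of the 10, among 9796 ranked, were Cotl1 (r = 0.856), Arhgap31 (0.823), Csrp1 (0.798), Rem1 (0.797) and Myl6 (0.766). These correlations share libraries and the replicate number effect and are given as descriptions.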

How the data were processed

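RNA from C2C12 cells was extracted with TriPure, treated with DNase on a column, made into stranded libraries for polyadenylated RNA (TruSeq) and sequenced on a NovaSeq instrument, per the labels' protocols. The authors deposited raw counts for 15062 genes in 17 libraries, and every column belonged to a library. The submitters' processing notes name FastQC 0.11.8, Trimmomatic 0.39, HISAT2, featureCounts of Subread 2.0.0 and the build GRCm38. The annotation, the strand setting and the handling of reads that match several places are not given in the sources used here. Every gene in the table reached 10 counts in at least 3 libraries; the filter behind this is not given in the sources used here.

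Groups and replicate numbers came from the titles. TMM factors (trimmed mean of M values) scaled the counts, and edgeR 4.0.16 (R 4.3.3, with limma 3.58.1) gave quasi-likelihood F tests with robust dispersions in 1 fit of all 17 libraries with a term for group. Benjamini-Hochberg adjustment ran over all genes within each comparison, and called means an adjusted p under 0.05. There were 15 comparisons of groups and 1 of the mean of the 4 fusions with the mean of pMSCV and SRF. SE is a log2 fold change over the root of its F. Levels are CPM, log2 CPM has a prior count of 2, and levels between genes were compared per kilobase of exon. The biological coefficient of variation was 36.5%. No 2 libraries of a group were duplicates (chi-square of their counts over its degrees of freedom 29.04 to 185.6).

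Same-numbered libraries of SRF-RELA, SRF-ICA1L, SRF and pMSCV deviated together from their group means in all 6 pairs of groups (correlations across genes of 0.392 to 0.789, against at most 0.114 for different numbers), a pairing that comes from the data and not from the labels. SRF-FOXO1 paired with SRF (0.22 to 0.33) and not with the other groups, and SRF-PDGFRB had 2 libraries. Blocked values are printed where they change a call.

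The members and the gene lists were chosen with earlier results of these data known. The genes named are all 10 members, Srf, up to 4 called genes per list and comparison by adjusted p, and the 5 genes nearest to the members' mean. One of the lists is not reported here. Genes that only a blocked fit or DESeq2 called are named where the text says so, and the muscle actins, Actn1, Myh9 and Cfl1 are named as members of their lists, chosen after their values were seen. Alternatives tried were DESeq2 1.42.0, upper quartile and total-count scaling, stricter and no filters, non-robust dispersions, fits of the compared groups alone, replicate blocks and leaving out libraries. The scripts were tested on simulated data.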

Additional observations from a re-analysis of the deposited data

How the results depend on the processing

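Leaving out libraries moved the members' median log2 fold change across 0 in 8 of the 10 comparisons with pMSCV, with SRF or pooled: the range was -0.33 to 0.0034 in SRF, -0.068 to 0.34 in SRF-FOXO1, -0.079 to 0.23 in SRF-ICA1L, -0.26 to 0.049 in SRF-PDGFRB and -0.011 to 0.22 in SRF-RELA against pMSCV, -0.18 to 0.27 in SRF-FOXO1 and -0.22 to 0.10 in SRF-PDGFRB against SRF, and -0.037 to 0.32 pooled. It stayed above 0 in SRF-ICA1L (0.064 to 0.46) and SRF-RELA (0.026 to 0.41) against SRF. No scaling moved the median of all genes by 0.1 or more. Scaling by upper quartile reversed values near 0 in Tpm4 for SRF against pMSCV (-0.020, with totals alone -0.0069) and in Vcl for SRF-RELA against pMSCV (-0.0038), and totals alone gave Flna 2.1e-05 for SRF-RELA against SRF. The replicate block reversed Vcl for SRF-RELA against pMSCV (-0.0028) and Actg1 for SRF-ICA1L against SRF (0.0047) with 17 libraries. With 12 libraries it gave Actg1 0.016 there, Tpm4 -0.00050 for SRF against pMSCV and Fhl2 0.017 for SRF-ICA1L against pMSCV. None of these was called by any fit, and the cause was not tested.

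The count of called members went from 0 to 1, Tpm2 each time, in SRF-FOXO1 against SRF with DESeq2 or with only the groups compared (adjusted p = 0.0436), and with a block of 6 libraries it had an adjusted p of 0.0514. The pooled comparison went to 1 with DESeq2 or the block of 17 libraries, and SRF-RELA against pMSCV and against SRF went to 1 with the block of 12. The block changed no other call. For the replicate number the count went from 3 to 5 with at least 50 counts in 3 libraries or without robust dispersions and to 0 with the block of 17 libraries. Leaving out libraries gave 0 to 4 members there and 0 to 1 in the comparisons of groups.

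Leaving out 1 library, or all with the same number, turned the direction of the values that follow (log2 fold change, lowest to highest), and none was called in any fit but Tpm2 in SRF-PDGFRB without the libraries numbered 2. In SRF against pMSCV the ranges were Tpm4 -0.23 to 0.14, Actb -0.25 to 0.19 and Myl9 -1.45 to 0.26. In SRF-FOXO1 against pMSCV the ranges were Tpm1 -0.041 to 0.30, Myl9 -0.095 to 1.34, Tpm4 -0.19 to 0.059, Vcl -0.037 to 0.42 and Flna -0.049 to 0.54. In SRF-ICA1L against pMSCV the ranges were Myl9 -0.36 to 0.93, Fhl2 -0.23 to 0.21, Zyx -0.35 to 0.16 and Actb -0.32 to 0.21. In SRF-PDGFRB against pMSCV the ranges were Vcl -0.19 to 0.22, Tpm1 -0.23 to 0.27, Myl9 -0.42 to 1.21, Fhl2 -0.31 to 0.13, Flna -0.066 to 0.35, Tpm4 -0.24 to 0.028 and Tpm2 -0.067 to 0.79. In SRF-RELA against pMSCV the ranges were Vcl -0.19 to 0.18, Fhl2 -0.062 to 0.39 and Actb -0.31 to 0.15. In SRF-FOXO1 against SRF the ranges were Flna -0.14 to 0.23, Actg1 -0.39 to 0.097, Tpm1 -0.26 to 0.14, Tpm4 -0.25 to 0.22 and Zyx -0.46 to 0.30. In SRF-ICA1L against SRF the ranges were Actb -0.24 to 0.21, Flna -0.061 to 0.19, Actg1 -0.16 to 0.20 and Tpm4 -0.024 to 0.44. In SRF-RELA against SRF the ranges were Zyx -0.077 to 0.31, Flna -0.15 to 0.094, Actb -0.23 to 0.15, Actg1 -0.23 to 0.11 and Tpm1 -0.0013 to 0.55. In the 4 fusions against pMSCV and SRF the ranges were Tpm4 -0.053 to 0.20, Tpm1 -0.061 to 0.36, Flna -0.022 to 0.28, Actb -0.37 to 0.0068 and Zyx -0.37 to 0.047. In SRF-PDGFRB against SRF the ranges were Actg1 -0.34 to 0.056, Tpm4 -0.34 to 0.14, Flna -0.34 to 0.038 and Zyx -0.27 to 0.035. The fewest counts of a member in a library were 83, in Myl9. Leaving out a library of SRF-PDGFRB leaves 1, assumed to vary like the other groups.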

Other observations

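The 28 other cytoskeletal genes were compared between numbers in the 12 libraries of SRF-RELA, SRF-ICA1L, SRF and pMSCV, with terms for group and number. In number 2 against number 1, edgeR called 9 higher and 3 lower, beside 18.3% and 17.3% of all genes (35.7% in both directions). In number 3 against number 2, 4 were higher and 4 lower, beside 21.2% and 20.9% of all genes (42.2% in both directions). In number 3 against number 1, Cnn2, Dstn, Filip1l, Flnc and Myh9 were called higher and none lower, beside 9.35% and 8.87% of all genes. The count of 9 higher was above its share of all genes. So was the count of those higher in number 3 than in number 1. The other counts were below theirs. The list as a whole was not tested, and the values that follow describe single genes. Lima1, an actin cross-linker, had a log2 difference of 1.37 for number 2 against number 1 (SE 0.168, adjusted p = 0.00136), Gsn (gelsolin, which severs filaments) one of 1.13 (SE 0.246, adjusted p = 0.00816) and Filip1l one of 0.96 (SE 0.175, adjusted p = 0.00458). For number 3 against number 2, Lima1 was at -1.24 (adjusted p = 0.000655) and Pfn1 (profilin, which feeds actin monomers to growing ends) at 0.72 (adjusted p = 0.00347). The SRF cofactors Mrtfa and Mrtfb went opposite ways in that comparison, Mrtfa at 0.46 (SE 0.123, adjusted p = 0.0131) and Mrtfb at -0.45 (SE 0.104, adjusted p = 0.00673). What the numbers stand for is not given in the labels, and its part in these values was not tested.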
